A study of Rattus norvegicus with 6 samples.

Results

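The genes described here convert and bind thyroid hormone, carry it and its precursor across the membranes of the follicular cell, and recover its iodine. The list held 9 genes, namely the deiodinases Dio1, Dio2 and Dio3, the iodotyrosine deiodinase Iyd, the transporters Slc16a10, Slc7a5 and Slc7a8, the endocytic receptor Lrp2 and the hormone-binding protein Crym. They were found by gene symbol in the count tables of the rat thyroid, where 8 of the 9 had a row among 15388 genes, and 6 of these had enough reads to be tested. Dio3 was not analysed here. Thyroids came from adult Sprague-Dawley rats. The non-pregnant (NP) controls were compared with rats in late pregnancy (LP) on day 18, counted from the vaginal plug as day 1, with 3 samples deposited for each group. Total RNA was extracted from the thyroid tissue, and libraries were made with a TruSeq RNA kit. The sources used here describe no transgene or drug treatment.

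Thyroid hormone is built on thyroglobulin, which is stored outside the cells in the follicle lumen, taken up again and digested in lysosomes. Digestion frees thyroxine and triiodothyronine, which leave the cell through membrane transporters, and also iodotyrosines, from which Iyd recovers the iodide for another round of synthesis. The deiodinases are selenoenzymes that take single iodine atoms off the hormone. Dio1 and Dio2 can make the active triiodothyronine from thyroxine, and Dio3 inactivates both hormones.

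The depth was between 2752144 and 3449857 counted reads per sample, so that 3 reads stood for 0.870 to 1.09 CPM, the unit used below for reads scaled to the library size (here by the totals alone, and with TMM normalization for all levels given below), with counting error alone considered. In both groups, replicates 2 and 3 were within sampling noise of each other, with a chi-square per degree of freedom of 1.02 (p = 0.111) in NP and 0.995 (p = 0.667) in LP. Replicate 1 stood apart from them, with 3.70 and 4.00 in NP and 3.81 and 4.11 in LP. For means ± SD, replicates 2 and 3 thus entered as a single sample, so that n = 2 for each group. Such an SD holds only the distance of replicate 1 from the mean of replicates 2 and 3. It is not an estimate of the variation between animals, and the p-values may measure less than that variation. Each test was run on the 6 samples and repeated after summing replicates 2 and 3 within a group. Thyroid follicular markers took between 23.0% and 24.7% of the counted reads in every sample, most of them thyroglobulin (Tg). Markers of skeletal muscle differed between the groups, with a summed level of 36.1 to 89.1 CPM in NP and 6665 to 7037 CPM in LP.

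Among the 6 tested genes, Dio1, Slc7a5 and Lrp2 were down-regulated in LP and Crym was up-regulated in edgeR's quasi-likelihood test at an adjusted p-value below 0.05, while Iyd and Slc7a8 did not pass. The change was -26.0% for Dio1, -34.7% for Slc7a5 and -9.33% for Lrp2, and Crym was 2.11-fold higher. Thus 3 of the 6 were lower and 1 was higher, against 11.7% and 15.3% of the 11738 genes tested, or 27.0% in either direction. The median log2 fold change of the 6 was -0.11, and that of all genes tested was -0.0091. By the study's criteria, an adjusted p-value below 0.05 together with more than a 2-fold change, Crym was the 1 member past the cutoff. The criteria were met by 5.44% of all genes tested, with 4.90% up-regulated and 0.537% down-regulated. With replicates 2 and 3 summed, 2 members were lower (8.36% of all genes) and 1 was higher (12.3%), out of 20.6% that passed. With the replicate number as a block, 3 members were lower (14.7% of all genes) and 1 was higher (17.5%). The CPM of the groups did not overlap for 3 lower members and for 2 higher ones, Crym and Slc7a8, a pattern seen in 19.0% and 21.1% of all genes and in 40.1% in either direction.

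**Figure D1:**
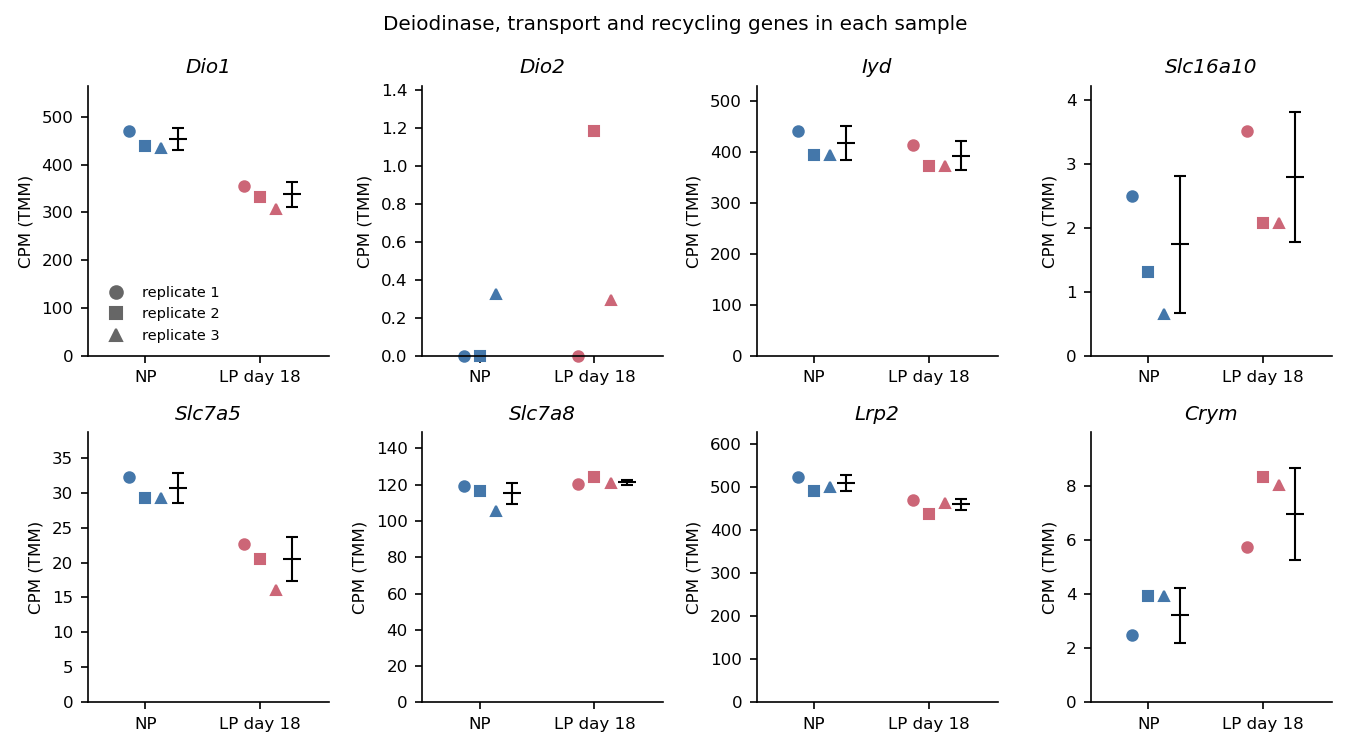
Expression of the 8 measured genes in CPM with TMM normalization (vertical axes, each from 0) in the 3 NP and 3 LP samples. Points are samples, with the shape giving the replicate number, and black bars give the mean ± SD with replicates 2 and 3 counted as 1 sample (no bar for Dio2, which had 4 reads at most). All LP points of Dio1, Slc7a5 and Lrp2 lay below all NP points, and those of Crym above.

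Dio1, the type 1 deiodinase (ENSRNOT00000091521), had read counts of 1316, 1341 and 1322 in NP replicates 1, 2 and 3 against 1113, 1120 and 1035 in the LP replicates. Scaled to library size this was 470, 439 and 434 CPM in NP and 355, 332 and 307 CPM in LP. The lowest NP sample lay above the highest LP sample, and within each group replicate 1 was the highest. The mean level fell from 453 ± 23.7 (SD, n = 2) to 338 ± 25.2 CPM, which gave a log2 fold change of -0.43 (standard error 0.059, 95% interval -0.56 to -0.31, adjusted p = 2.13e-05). With replicates 2 and 3 summed the log2 fold change was -0.43 (adjusted p = 0.00181). When the same libraries were split, the LP to NP ratio was 0.756 (95% counting interval 0.697 to 0.819) in replicate 1. It was 0.732 (0.691 to 0.775) in replicates 2 and 3. Here and below, counting intervals hold the error of read counts alone and no variation between animals. The split ratios therefore describe the libraries and cannot show that a change would be found again in other animals.

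Slc7a5, the light chain of the amino acid exchanger LAT1 that also carries iodothyronines (ENSRNOT00000025784), had 90, 89 and 89 reads in NP against 71, 69 and 54 in LP. Its levels were 32.2, 29.2 and 29.2 CPM in NP and 22.7, 20.5 and 16.03 CPM in LP. The groups did not overlap, and LP replicate 3 was the lowest of the 6 samples. The log2 fold change was -0.62 (standard error 0.14, 95% interval -0.91 to -0.32, adjusted p = 0.00258), and -0.61 (adjusted p = 0.0110) with replicates 2 and 3 summed. The ratio was 0.705 (counting interval 0.509 to 0.973) in replicate 1 and 0.625 (0.493 to 0.791) in replicates 2 and 3.

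Lrp2, or megalin, the large receptor that binds thyroglobulin at the apical membrane (ENSRNOT00000082624), had 1462, 1502 and 1521 reads in NP against 1471, 1479 and 1564 in LP. In CPM these were 522, 492 and 499 against 470, 439 and 464. The raw reads of the groups overlapped, and the scaled values did not. The log2 fold change was small, at -0.14 (standard error 0.049, 95% interval -0.25 to -0.037, adjusted p = 0.0425). It did not pass with replicates 2 and 3 summed (adjusted p = 0.146), with DESeq2 (adjusted p = 0.0528), with DESeq2's size factors in edgeR (0.0507), with a scaling that left out the muscle markers and all genes past the criteria (0.0793), or without NP replicate 1 (0.110), NP replicate 3 (0.0700), LP replicate 2 (0.171) or LP replicate 3 (0.0829). The ratio of LP to NP was 0.899 (counting interval 0.836 to 0.967) in replicate 1 and 0.911 (0.866 to 0.958) in replicates 2 and 3. Lrpap1, the chaperone of the receptors of this family, had a log2 fold change of -0.095 (adjusted p = 0.241). In a tissue of several cell types, fewer cells of a type and less RNA per cell cannot be told apart for any of these genes.

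**Figure D2:**
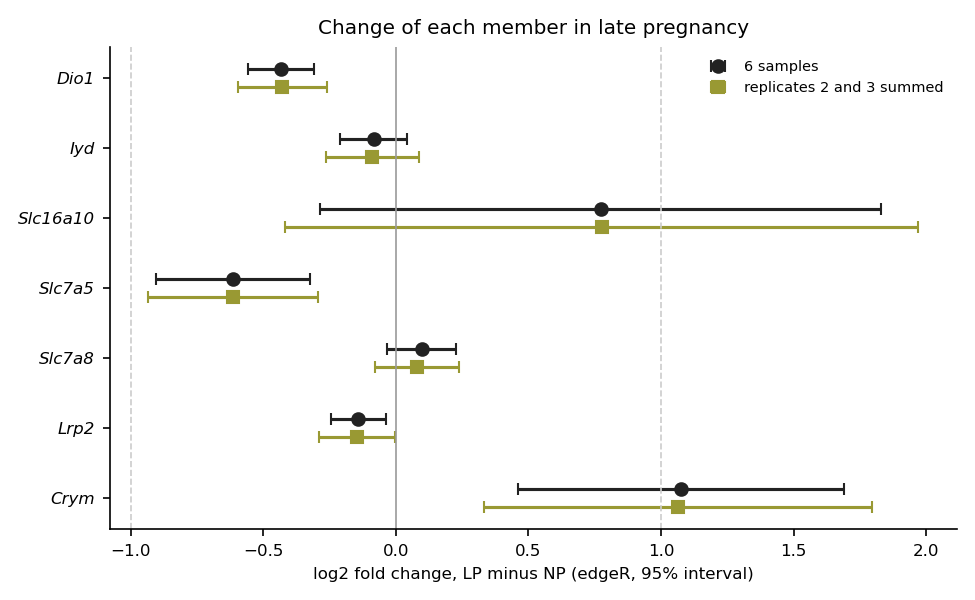
Log2 fold change of LP over NP from edgeR (horizontal axis) for 7 members (Dio2 had too few reads), on the 6 samples (circles) and with replicates 2 and 3 of each group summed (squares). Bars are 95% intervals and the dashed lines mark a 2-fold change. The intervals of Dio1, Slc7a5, Lrp2 and Crym, which are not adjusted for the number of genes, lay on 1 side of 0 in both fits, and those of Iyd, Slc7a8 and Slc16a10 crossed 0.

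The 250 bases before the annotated start of Dio1, Slc7a5 and Lrp2 are shown, the 3 members that were lower in the main fit. Lrp2 is shown with them although it passed under only 8 of 16 alternatives, and not with replicates 2 and 3 summed. They were taken from RefSeq on the build GRCr8, where they lie on the minus strand at chr5:127319785-127320034 (Dio1), chr19:66872413-66872662 (Slc7a5) and chr3:74754536-74754785 (Lrp2). The counts were made on rn5, and no position was converted between builds. The table held 8 of the 9 members, without Crym. Both strands were searched for CAAGTG, a core bound by the thyroid factor NKX2-1, for AGGTCA, the hexamer of thyroid hormone and other nuclear receptors, for the E-box CACGTG, and for TGATGNAA, the amino acid response element. Matches are in capitals, and no match overlapped another.
Dio1: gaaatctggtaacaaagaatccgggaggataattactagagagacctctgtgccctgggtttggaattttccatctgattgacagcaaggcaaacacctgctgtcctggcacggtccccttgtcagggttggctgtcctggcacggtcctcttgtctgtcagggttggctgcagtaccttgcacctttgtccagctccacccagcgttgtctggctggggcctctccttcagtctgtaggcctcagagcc
Slc7a5: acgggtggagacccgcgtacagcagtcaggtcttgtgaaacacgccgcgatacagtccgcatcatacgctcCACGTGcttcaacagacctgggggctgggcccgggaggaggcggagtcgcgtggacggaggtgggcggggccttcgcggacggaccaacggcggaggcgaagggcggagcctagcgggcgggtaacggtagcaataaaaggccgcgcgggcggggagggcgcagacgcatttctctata
Lrp2: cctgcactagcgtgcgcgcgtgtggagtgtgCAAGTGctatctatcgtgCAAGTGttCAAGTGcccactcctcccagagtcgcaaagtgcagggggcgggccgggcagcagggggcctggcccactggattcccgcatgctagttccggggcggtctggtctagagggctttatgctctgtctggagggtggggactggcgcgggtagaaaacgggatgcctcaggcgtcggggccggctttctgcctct
The Lrp2 window held CAAGTG 3 times, starting 219, 201 and 193 bases before the start. Of 33469 rat promoter windows of the same length, 11.7% held this motif at least once. The Slc7a5 window held 1 E-box, 179 bases before the start, against 5.59% of all windows. The Dio1 window held none of the 4 motifs. AGGTCA was in 14.1% of all windows and TGATGNAA in 3.40%, and neither was in these 3. Among the other members, CAAGTG was found 1 time in the window of Iyd and AGGTCA 1 time in that of Slc16a10. A match is a run of letters and was not tested as a binding site.

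Iyd, which recovers iodide from the iodotyrosines left over from thyroglobulin (ENSRNOT00000021895), had 1233, 1199 and 1198 reads in NP against 1292, 1257 and 1254 in LP. Its levels of 441, 393 and 393 CPM in NP overlapped the 412, 373 and 372 CPM in LP, and replicate 1 was the highest in both groups. The log2 fold change was -0.084 (standard error 0.060, 95% interval -0.21 to 0.043, adjusted p = 0.343). On this scale the interval allowed a change between -13.6% and 3.01%. Iyd did pass when libraries were scaled by their totals alone (log2 fold change -0.16, adjusted p = 0.0472) or by thyroglobulin reads (-0.15, adjusted p = 0.0433), a scaling under which 14.9% of all genes were lower.

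Slc7a8, the light chain of LAT2 (ENSRNOT00000092160), had 334, 356 and 321 reads in NP against 377, 418 and 407 in LP, or 119, 117 and 105 CPM against 120, 124 and 121 CPM. Every LP value lay above every NP value, which 21.1% of the tested genes showed. However, the gap was narrow, and the log2 fold change of 0.098 (standard error 0.061, 95% interval -0.032 to 0.23) did not pass (adjusted p = 0.271).

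LAT1 and LAT2 share the heavy chain Slc3a2, without which the light chains do not reach the membrane. Slc3a2 itself was lower in LP, with 842, 899 and 923 reads in NP against 802, 815 and 840 in LP (log2 fold change -0.27, standard error 0.053, adjusted p = 0.000970). Ratios of reads within a sample do not depend on the scaling of libraries, and were therefore set beside the CPM. For each read of Slc7a5 there were 3.71, 4.00 and 3.61 reads of Slc7a8 in NP and 5.31, 6.06 and 7.54 in LP. The geometric mean of the 3 ratios was 1.65-fold higher in LP. The ratio of Slc7a5 to Slc3a2 was 0.107, 0.0990 and 0.0964 in NP and 0.0885, 0.0847 and 0.0643 in LP. That of Slc7a8 to Slc3a2 was 0.397, 0.396 and 0.348 in NP and 0.470, 0.513 and 0.485 in LP. None of these ratios overlapped between the groups. The share of all gene pairs without overlap was not counted, and for single genes in CPM it was 40.1%. In the Slc7a8 to Slc3a2 ratio the denominator was lower in LP, while Slc7a8 itself did not pass. With 3 against 3 samples an exact two-sided permutation test cannot go below p = 0.1. Each of these ratios gave that value (0.12 after adjustment over the 12 ratios tested). This test gives that value whenever the groups do not overlap, so it adds nothing to the lack of overlap. It also took replicates 2 and 3 as separate samples, so its p-values may be too small.

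The same comparison was made with thyroglobulin, the hormone precursor, whose level did not pass the test between the groups (log2 fold change 0.062, adjusted p = 0.0594). It did pass under 6 of 15 alternatives, among them the replicate block (0.063, adjusted p = 2.20e-42), the fits without NP replicate 1 (0.098, adjusted p = 0.000258) or LP replicate 2 (0.079, adjusted p = 0.0436) and the scaling without muscle markers and genes past the criteria (0.081, adjusted p = 0.0179). With library totals alone the sign turned (-0.0093, adjusted p = 0.781). The ratios therefore give each member relative to Tg, which may itself differ between the groups. Per 1000 Tg reads there were 1.95, 1.97 and 1.94 reads of Dio1 in NP and 1.42, 1.42 and 1.31 in LP. On this scale NP replicate 1 lay between the other NP samples. The geometric mean of the ratios in LP was 0.708 times that in NP, with replicates 2 and 3 taken separately. Lrp2 was at 2.17, 2.21 and 2.23 reads per 1000 Tg reads in NP and at 1.88, 1.88 and 1.98 in LP, again without overlap. Slc7a5 went from 0.132 ± 0.00207 (SD, n = 2) to 0.0843 ± 0.00916 per 1000 Tg reads. Iyd, whose CPM overlapped, did not overlap here, with 1.83, 1.76 and 1.76 in NP and 1.65, 1.59 and 1.58 in LP. Slc7a8 showed the opposite, with 0.495, 0.523 and 0.470 in NP overlapping 0.482, 0.530 and 0.514 in LP. The share of all genes without overlap per Tg was not counted, and in CPM it was 40.1% in either direction. Scaling to Tg moved the log2 fold changes of all genes by a median of -0.063, so the lack of overlap of Iyd is not particular to it. For each read of Iyd there were 1.07, 1.12 and 1.10 reads of Dio1 in NP and 0.861, 0.891 and 0.825 in LP. The exact two-sided permutation p was 0.1 for Dio1, Slc7a5, Lrp2 and Iyd per Tg and for Dio1 per Iyd, again the smallest the design allows, and 0.6 for Slc7a8 per Tg.

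**Figure D3:**
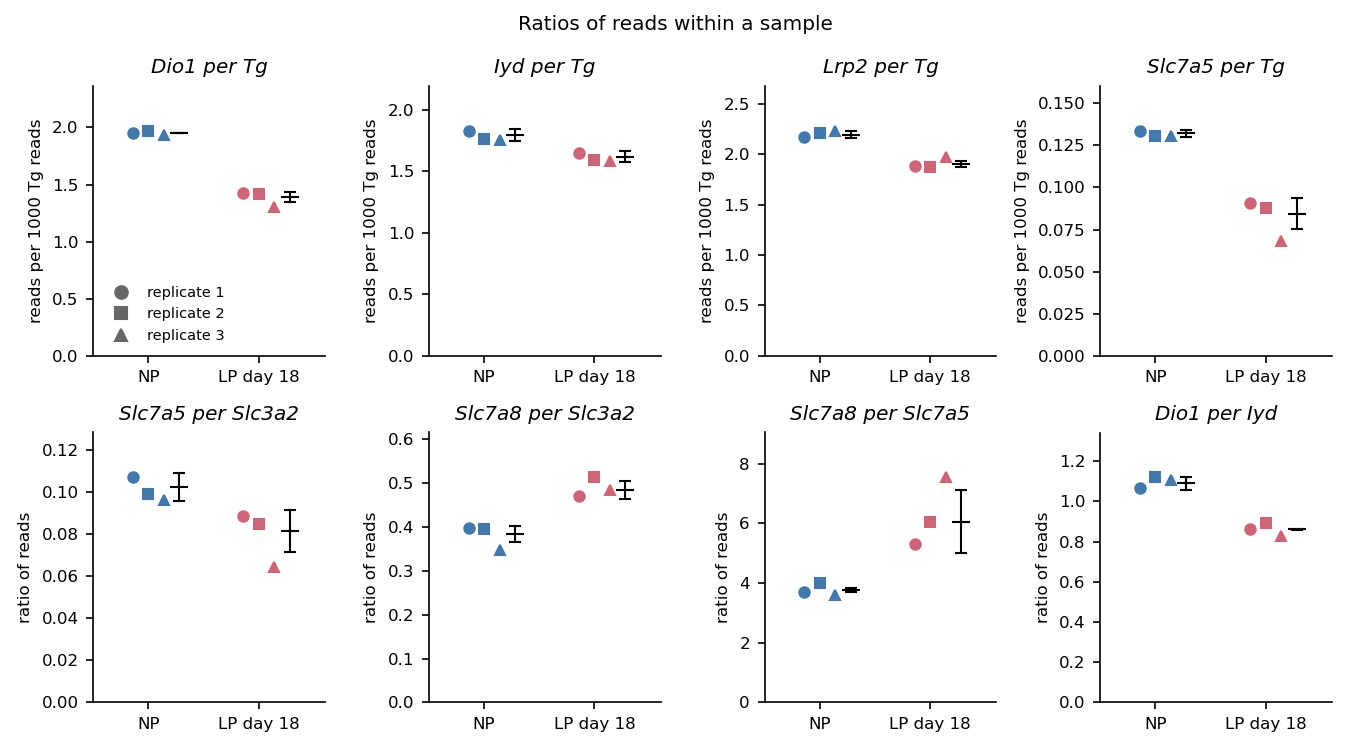
Reads of 1 gene divided by reads of another in the same sample (vertical axes, each from 0), for 4 members per 1000 Tg reads, for transporter chains against each other and for Dio1 against Iyd. Points are samples by replicate, and black bars give the mean ± SD with replicates 2 and 3 counted as 1. The Slc7a8 to Slc7a5 ratio lay between 3.61 and 4.00 in NP and between 5.31 and 7.54 in LP.

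Crym, or mu-crystallin, which holds triiodothyronine in the cytosol in the presence of NADPH (ENSRNOT00000088482), had few reads, 7, 12 and 12 in NP and 18, 28 and 27 in LP. Its levels were 2.50, 3.93 and 3.94 CPM in NP and 5.75, 8.30 and 8.01 CPM in LP, and replicate 1 was the lowest in each group. The log2 fold change was 1.08 (standard error 0.29, 95% interval 0.46 to 1.69, adjusted p = 0.0103), so that the fold lay between 1.38 and 3.23. With replicates 2 and 3 summed the adjusted p was 0.0426, and with DESeq2 it was 0.0849. The fold was no longer above 2 without NP replicate 1 (log2 fold change 0.90) or without LP replicate 2 (0.98). By counting error alone, the ratio was 2.30 (0.916 to 6.51) in replicate 1 and 2.07 (1.26 to 3.50) in replicates 2 and 3.

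Slc16a10, a transporter of aromatic amino acids and thyroid hormone (ENSRNOT00000000718), had too few reads for the filter, with 7, 4 and 2 in NP against 11, 7 and 7 in LP. Fitted without the filter, under which 20.7% of 15388 genes passed, its change was 0.77 on the log2 scale (standard error 0.51, 95% interval -0.28 to 1.83, adjusted p = 0.334). The samples overlapped, since LP replicates 2 and 3 were at 2.08 CPM and NP replicate 1 was at 2.50 CPM. The fold could lie anywhere between 0.821 and 3.55. Dio2, the type 2 deiodinase (ENSRNOT00000087560), was at the limit of detection, with 0, 0 and 1 reads in NP against 0, 4 and 1 in LP. Its ratio of 4.51 had a counting interval from 0.504 to 213, so a difference was not detectable at this depth.

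Crym, Slc16a10 and Dio2 are also expressed in skeletal muscle, and Dio2 in brown fat, so the markers of these tissues are given beside them. Of 22 listed muscle genes 17 had a row and 16 were tested, of which 14 were higher in LP and 2 did not pass. The muscle gene Actn2 had 2, 2 and 6 reads in NP against 1453, 1502 and 1500 in LP. In contrast, skeletal actin (Acta1) had 0, 166 and 144 reads in NP against 0, 186 and 185 in LP, so that replicate 1 of both groups was at 0. Crym was lower in replicate 1 than in replicates 2 and 3 of both groups, whereas Slc16a10 was highest in replicate 1 of both groups. The summed muscle markers were lowest in replicate 1 of NP (36.1 against 89.1 and 85.7 CPM) but highest in replicate 1 of LP (7037 against 6666 and 6665 CPM). The summed adipocyte and brown fat markers lay between 59.1 and 69.0 CPM in NP and between 61.1 and 73.1 CPM in LP, and of 4 tested genes 0 were called in edgeR, 0 had an unadjusted p-value below 0.05, and 0 were called in DESeq2. The brown fat marker Ucp1 was at 12, 9 and 9 reads in NP against 2, 4 and 4 in LP. The part of muscle RNA in the Crym result was not tested. When the scaling left out muscle markers and genes past the criteria, edgeR gave a log2 fold change of 1.09 for Crym, -0.42 for Dio1 and -0.60 for Slc7a5. That setting changes only the scaling of the libraries and takes no muscle reads away from a gene, so it cannot decide the source of Crym.

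**Figure D4:**
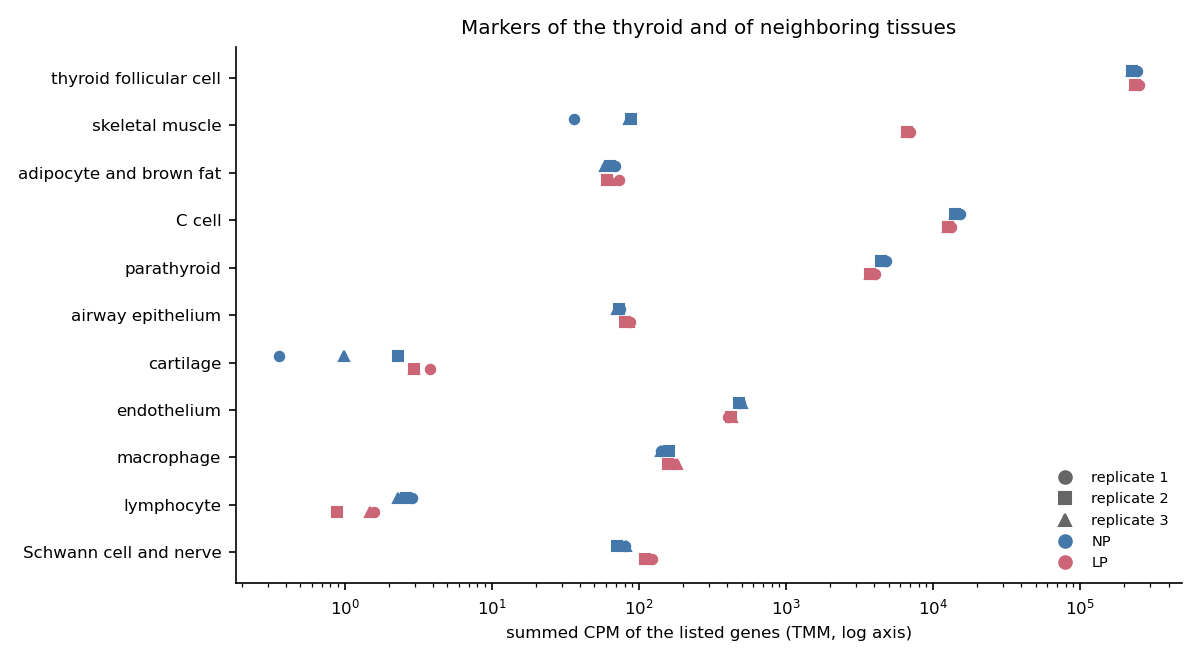
Summed CPM (log axis) of marker genes of the thyroid follicular cell and of other tissues that a thyroid sample can hold, in the 3 NP (blue) and 3 LP (red) samples, with the shape giving the replicate. Muscle markers lay at 89.1 CPM or less in NP and at 6665 CPM or more in LP, while follicular markers lay between 225339 and 251704 CPM in all samples.

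C cell and parathyroid tissue was also present. The summed C cell markers lay between 14191 and 15166 CPM in NP and between 12585 and 13342 CPM in LP, and the parathyroid markers between 4458 and 4830 CPM in NP and between 3717 and 4029 CPM in LP. Both sums were lower in LP without overlap, but the genes behind them did not move together. Of the C cell genes 1 was lower and 2 were higher among 6 tested. The parathyroid sum was mostly that of parathyroid hormone (Pth), the 1 of 3 genes that was lower, while Gcm2 lay at 86.1, 72.1 and 82.4 CPM in NP and at 94.8, 87.8 and 89.6 CPM in LP. Endothelial markers summed to 479 to 500.1 CPM in NP and 405 to 430 CPM in LP, with 3 of 5 genes lower. Sums were higher in LP for airway markers (70.9 to 74.3 against 80.96 to 87.5 CPM, 3 of 4 genes higher) and for Schwann cell markers (71.1 to 81.8 against 111 to 124 CPM, 2 of 5 genes higher). Macrophage markers lay at 142 to 160 against 157 to 182 CPM. The summed markers of cartilage and of lymphocytes were under 4 CPM in every sample. The part of these tissues in the results was not tested.

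The other genes of the pathway were then examined from lists of transporters, thyroglobulin uptake and proteolysis, selenoprotein synthesis, ubiquitination of Dio2, iodination, and hormone binding and conjugation. Of 61 genes with a row 51 were tested, with 7 higher and 9 lower in LP at an adjusted p-value below 0.05 and 35 that did not pass. Of all genes tested, 15.3% were higher and 11.7% lower, or 27.0% in either direction. With the replicate block 8 pathway genes were higher (17.5% of all genes) and 12 lower (14.7%). The median log2 fold change was -0.032.

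Among the transporters and their relatives counted here, 1 of 9 tested genes was lower (11.7% of all genes) and 8 did not pass, with a median log2 fold change of 0.033. The gene that was lower was Slc3a2, described above. The organic anion carriers Slco2b1 and Slco3a1 had log2 fold changes of 0.12 (adjusted p = 0.597) and 0.0031 (adjusted p = 0.986).

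Of the 14 tested genes of thyroglobulin uptake and proteolysis, 3 were higher and 1 was lower, against 27.0% of all genes called in either direction, with a median of -0.075. The number lower was 2 without NP replicate 1, 3 with the replicate block and 5 with library totals alone. The proteases did not move together. Cathepsin L (Ctsl) fell from 405 ± 8.48 to 289 ± 9.01 CPM (log2 fold change -0.49, adjusted p = 1.43e-06), whereas cathepsin D (Ctsd) rose from 235 ± 33.6 to 309 ± 46.3 CPM (0.40, adjusted p = 0.00247). Legumain (Lgmn), which activates cathepsins, rose by 0.41 on the log2 scale (adjusted p = 0.000782). Lrp1, a receptor of the same family as Lrp2, was the other gene that was higher (0.28, adjusted p = 0.00519). Cathepsin B (Ctsb), with 3331 to 3788 reads in all samples, had a log2 fold change of -0.031 (adjusted p = 0.625).

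Because the deiodinases contain selenocysteine, genes of selenoprotein synthesis, from selenium supply to the insertion of selenocysteine, were examined as well. Of 11 tested, 0 were higher and 2 were lower (11.7% of all genes), with a median of -0.094. The number lower was 1 without LP replicate 1, 4 with library totals alone and 0 with DESeq2. Higher genes numbered 0 at an unadjusted p-value below 0.05 in edgeR as well, and 0 in DESeq2. The genes that were lower act in the supply of selenium. Lrp8, a receptor for selenoprotein P, had a log2 fold change of -0.31 (adjusted p = 0.00475) and Sepp1, selenoprotein P itself, had one of -0.31 (adjusted p = 0.0144). Neither passed with DESeq2, where the adjusted p was 0.0849 for Lrp8 and 0.150 for Sepp1, and Sepp1 did not pass without LP replicate 1 (adjusted p = 0.0601). Secisbp2, which binds the selenocysteine insertion element, had a log2 fold change of -0.15 (adjusted p = 0.295).

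Of the 7 tested genes that attach ubiquitin to Dio2 or remove it, 1 was higher and 1 was lower, against 27.0% of all genes in either direction, with a median of -0.13. The number lower was 2 under 6 alternatives, among them the replicate block and the fits without NP replicate 2 or LP replicate 1. The ubiquitin ligase March6 lay at 42.9, 37.3 and 38.7 CPM in NP and at 61.0, 57.2 and 62.0 CPM in LP. Its log2 fold change was 0.60 (adjusted p = 4.36e-05). The deubiquitinase Usp20 fell from 170 ± 8.12 to 137 ± 7.75 CPM (-0.32, adjusted p = 0.000857). Both act on many proteins, and Dio2 itself was hardly detected.

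Among the 8 tested genes of iodide uptake and iodination, 2 were higher (15.3% of all genes), 3 were lower (11.7%) and 3 did not pass, with a median of 0.099. The number higher was 4 without NP replicate 1 and 1 without LP replicate 1 or with DESeq2. Ano1, an anion channel that lets iodide pass, had a log2 fold change of -0.29 (adjusted p = 0.00230), in the same direction as the symporter Slc5a5 (-0.94) and the TSH receptor Tshr (-0.68), whereas the peroxide-producing pair Duoxa2 (0.48) and Duox2 (0.29) was higher. Duox2 did not pass with DESeq2 (adjusted p = 0.114) or without LP replicate 1 (0.0625). Of the genes of hormone binding and conjugation only 4 had a row and 2 were tested. Both passed, 1 lower and 1 higher, against 27.0% of all genes in either direction. Sult1a1, a phenol sulfotransferase that can also sulfate iodothyronines, had 185, 209 and 196 reads in NP against 61, 59 and 71 in LP (log2 fold change -1.78, standard error 0.10, adjusted p = 2.77e-10). The LP samples lay at 19.5, 17.5 and 21.1 CPM, and the fit put the level of Sult1a1 in LP at 0.292 times that in NP. Albumin (Alb), a carrier of thyroid hormone in plasma, had 1, 8 and 2 reads in NP against 26, 29 and 33 in LP (2.81, adjusted p = 4.38e-05). Without NP replicate 2 its log2 fold change was 4.01.

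**Figure D5:**
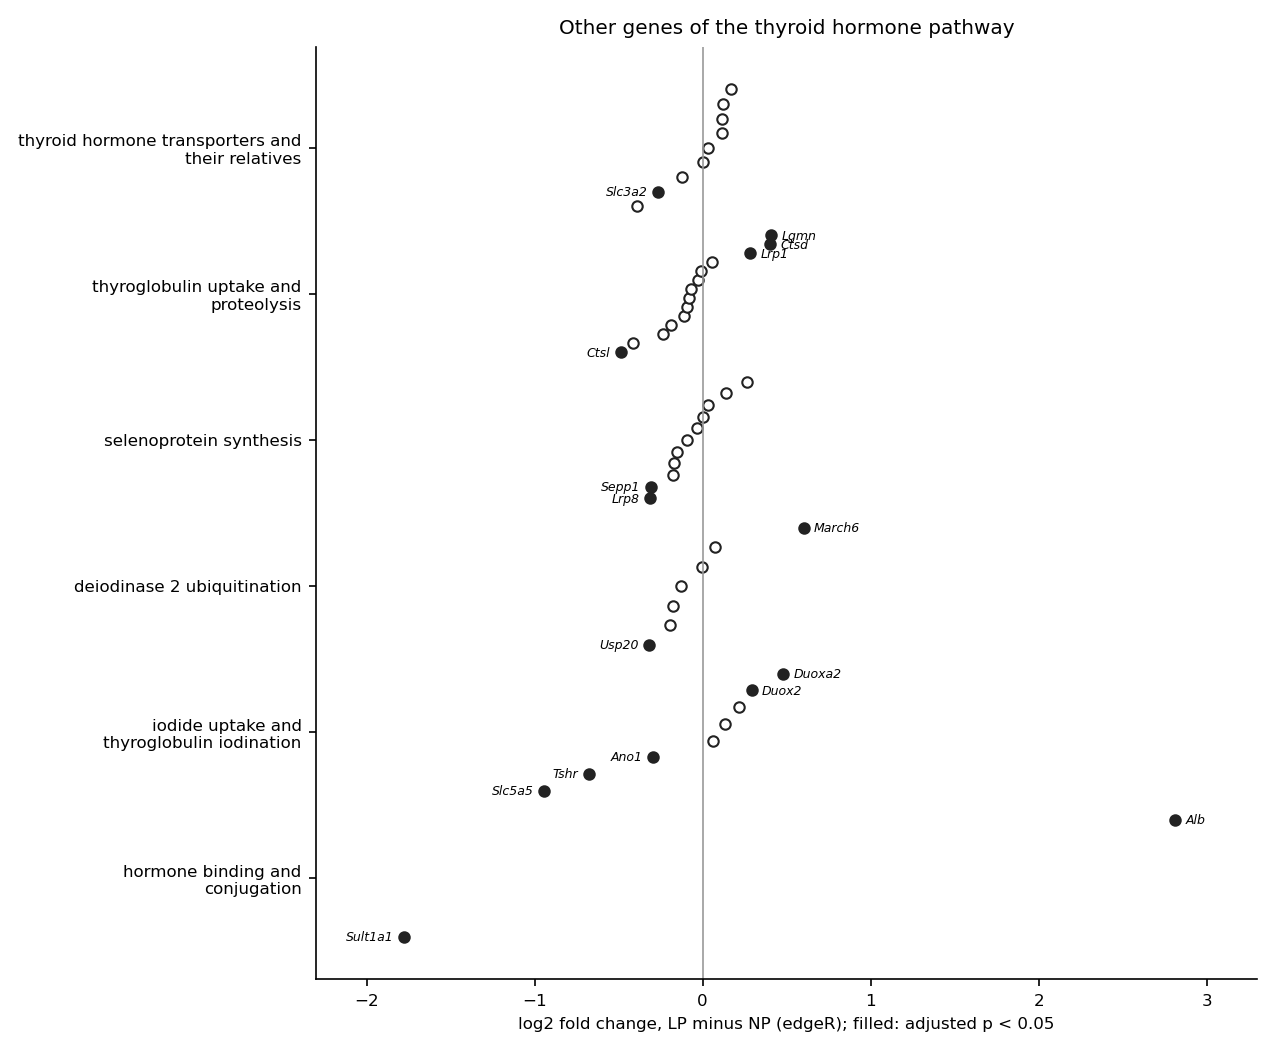
Log2 fold change of LP over NP (horizontal axis) for the 51 tested genes of the 6 pathway lists, ordered by value within each list. Filled points passed an adjusted p-value of 0.05 in edgeR and are named. Sult1a1 at -1.78 and Alb at 2.81 lay furthest from 0.

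Finally, the genes whose pattern over the 6 samples was most like those of Dio1 and Slc7a5 were looked up among 7938 tested genes with a mean of at least 50 reads, by Pearson's r of log2(CPM + 1). Nearest to Dio1 were Nt5dc2 (r = 0.998, log2 fold change -0.56), Lbhd1 (0.997, -0.31, adjusted p = 0.129) and Magt1 (0.997, -0.62). Nearest to Slc7a5 were Resp18 (0.999, -0.26), Riok3 (0.995, -0.19) and Tm9sf2 (0.995, -0.21). The samples share group, depth and replicate set, and 733 genes had an r above 0.9 with Dio1 and 475 with Slc7a5, so these values only rank the genes.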

How the data were processed

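Thyroid samples, 3 NP and 3 LP, were sequenced by the authors on an Illumina system from TruSeq libraries. Per the methods and the labels, the authors mapped reads to rn5 with TopHat 1.4.0, and counted them with HTSeq-count on gene models of Ensembl release 81. The deposited values are these read counts, not normalized, for 15388 genes in each sample. The strand setting is not given in the sources used here, so reads of overlapping antisense genes cannot be told apart. Counts depend on transcript length and were not compared between genes as levels.

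LP was compared with NP in R 4.3.3 with edgeR 4.0.16 (quasi-likelihood test, TMM, default filter on low counts, Benjamini-Hochberg adjustment over 11738 genes). The standard error of a log2 fold change is its size over the root of the F statistic. For members with too few reads, the fit was repeated on all genes. DESeq2 1.42.0 was an alternative. TMM moved the median log2 fold change of all genes by 0.0719 relative to library totals. Ratios of reads were compared by exact permutation tests, and ratios of low counts have exact binomial counting intervals. Of the steps, only the edgeR and DESeq2 fits were tested on simulated counts, with independent replicates and changes larger than those of the tested members. That simulation cannot speak for small changes or for the likeness of replicates 2 and 3. The replicate numbers were checked for pairing. Samples of the same number deviated together from their group means, with correlations across genes of 0.483, 0.216 and 0.183 for replicates 1, 2 and 3. Replicates 2 and 3 did so as well when crossed (0.209 and 0.207). Since replicate 1 stood apart in both groups, the check cannot show that replicates 2 and 3 pair by number. The block took the numbers as pairs all the same, as an alternative. With the number as a block, the coefficient of variation between replicates that edgeR estimated fell from 0.0645 to 0.0131. Much of the spread within a group thus went with the replicate number.

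Results for some genes are not reported here, and these genes were left out of the lists, sums and ratios. The members, lists and tests were chosen with earlier results of these data known. Genes named beside the members are up to 2 higher and 2 lower genes of each pathway list with the lowest adjusted p-value, genes named in any case (Slc3a2, Lrpap1, Tg, Slc5a5 and Tshr), and the 3 genes most like each of the 2 members with the lowest adjusted p-value. Lrp1, Ano1, Ctsb, Secisbp2, Slco2b1, Slco3a1, Actn2, Acta1 and Ucp1, and Pygm and Ttr in the closing section, were chosen after their values were seen.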

Additional observations from a re-analysis of the deposited data

How the results depend on the processing

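Dio1 and Slc7a5 kept their direction and passed under all 16 alternatives, with log2 fold changes from -0.51 to -0.38 and from -0.73 to -0.49. Lrp2 kept its direction but passed under 8 of 16, and Crym passed under 14 of the 15 that held it. With each replicate left out in turn, 2 to 3 members were lower, 1 was higher, and 0 to 1 was past the criteria. With a mean of at least 50 reads required, 0 members were higher and 0 past the criteria, since Crym was not tested, and 286 and 29 of all genes were past the criteria as higher and lower. With DESeq2, 0 members were higher and 0 past the criteria, and 703 of all genes were lower, against 1378 in edgeR. The cause was not tested. With the fold itself tested against 2, 0 members, 366 higher and 23 lower genes were past the criteria. With library totals alone, 16 pathway genes and 2154 of all genes were lower, with 1461 of all genes higher, and Tg turned to -0.0093 (adjusted p = 0.781). That scaling moved the median of all genes by -0.072. Scaled to thyroglobulin reads, an alternative chosen after the data were seen, 1367 genes were higher and 1744 lower, against 1794 and 1378, with 1 member higher and 4 lower. As shares of library totals, the log2 ratios of marker sums moved to -0.013 for follicular, -0.25 for C cell, 0.15 for airway, -0.30 for endothelial and 0.16 for macrophage markers. The replicate block, with the numbers taken as pairs, gave 1 member higher and 3 lower (adjusted p = 0.0609 for Iyd) and 2057 and 1727 of all genes, changed no call of a member, and was 1 of 6 alternatives among 15 under which Tg passed (log2 fold change 0.063). Depth limits Dio2 and Slc16a10, for which no call could be made, and Crym, whose interval spans 1.38-fold to 3.23-fold.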

Other observations

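The muscle gene Pygm was at 0 reads in replicate 1 of both groups, while replicates 2 and 3 had 18 and 7 in NP against 15 and 19 in LP, and Acta1 was likewise at 0 in replicate 1 alone. Transthyretin (Ttr), a carrier of thyroid hormone below the filter on low counts, was at 0 in the NP samples, against 4, 1 and 6 reads in LP.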
